A study of Nematostella vectensis with 18 samples.

Results

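A group of 134 genes of the sea anemone Nematostella vectensis had lower transcript levels in Nep3-positive than in Nep3-negative tentacle cells and a small mean difference between Ncol3-positive and Ncol3-negative cells. They were chosen from 23764 genes with any count, of which 11677 reached a mean of at least 10 CPM (counts scaled to library size) in at least 1 sorted population. Levels were put on the log2(CPM + 1) scale after scaling of the libraries by the trimmed mean of M-values (TMM). A member had a Nep3-positive mean at least 1 unit below the Nep3-negative mean and an Ncol3 difference smaller than 0.5 in either direction. The list was open to 150 genes, and all 134 that met the rule were kept. The values within each line therefore chose the members, and they are given as a description. Where test calls of members within a line are printed, they follow from this choice and are no support for it.

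All groups were untreated tentacle cells of adult polyps, which lived at 18 °C and a salinity of 16 permil, sorted by fluorescence from dissociated tissue. The Nep3::mOrange reporter line gave 5 Nep3-positive and 5 Nep3-negative libraries, and the Ncol3::mOrange reporter line gave 4 Ncol3-positive and 4 Ncol3-negative libraries. All cells carried a reporter transgene, so the negative populations come from transgenic animals as well. Replicates are named by the numbers in their titles. The design text of the series counts 4 replicates in each condition, whereas the Nep3-positive descriptions repeat the number 1. The labels do not say that replicates came from different animals, so p-values measure only the spread between these libraries, which may be technical.

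Cnidocytes, the stinging cells of cnidarians, fire a capsule that the cell builds inside a Golgi-derived vesicle. Sea anemone tentacles hold several kinds, among them venom-bearing nematocytes and adhesive spirocytes. Ncol3 encodes a minicollagen of the capsule wall, and Nep3 encodes a toxin-related protein of nematocytes, which is how the labels name the Nep3-positive cells. Negative cells of either line are whatever else the tentacle yields, such as epithelial, neural, gland and muscle cells, together with any cnidocytes that the reporter did not mark. The deposited table identifies genes by NV2 numbers, and 0 of the 134 members matched an identifier in the RefSeq gene table that was used, so no function, position or sequence is given for them.

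The libraries held between 5463324 and 15269119 counts. The reporter transcript mOrange2, the only cell marker that could be matched, averaged 715 ± 156 CPM in Nep3-positive and 85.9 ± 68.7 CPM in Nep3-negative libraries (SD, n = 5 each). The fitted log2 fold change was 3.02 (SE 0.44, edgeR adjusted p = 2.78e-05). It averaged 975 ± 286 CPM in Ncol3-positive and 293 ± 73.4 CPM in Ncol3-negative libraries (SD, n = 4 each), with a fitted value of 1.65 (SE 0.47, edgeR adjusted p = 0.0129). Reporter transcript was thus present in all negative libraries, at no less than 31.8 CPM.

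Among the genes at the level floor, 1298 were lower by at least 1 log2 unit in Nep3-positive than in Nep3-negative cells. The 134 members made up 10.3% of these. Of all 11677 genes at the floor, 63.4% met the same limit on the Ncol3 difference. Most genes that were low in Nep3-positive cells lay to either side of the members. In 571 of the 1298 the level was also at least 1 unit lower in Ncol3-positive cells, and in 427 it was at least 1 unit higher there. A further 97 genes had an Ncol3 difference between −1 and −0.5, and 69 had one between 0.5 and 1. These ranges differ in width. Per step of 0.5 in the Ncol3 difference, the range of the members held 73 genes below 0 and 61 from 0 upwards. Steps from 0.5 to 2 were about as full, with 69, 76 and 77 genes. On the other side, steps from −0.5 down to −2 held more, with 97, 184 and 232 genes. Beyond these, 155 genes lay below −2 and 274 at 2 or higher. The mirrored pattern, a level at least 1 unit lower in Ncol3-positive cells with a Nep3 difference under 0.5, was found for 47 genes.

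**Figure D1:**
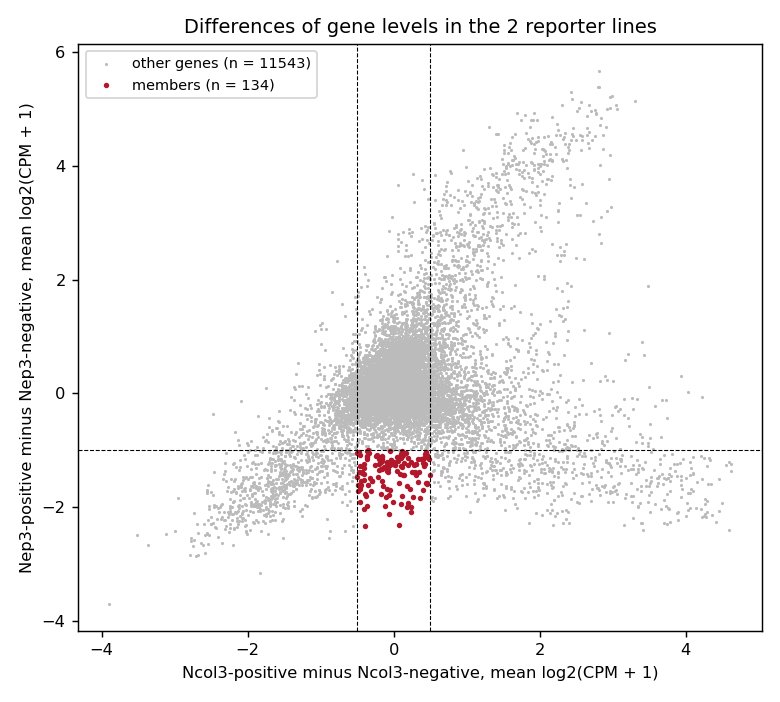
Each point is 1 of 11677 genes with a mean of at least 10 CPM in at least 1 population; the axes give the positive-minus-negative difference in the Ncol3 line (horizontal) and the Nep3 line (vertical) in log2(CPM + 1) units, and dashed lines mark the limits of the rule. The 134 members (red) lie below −1 between −0.5 and 0.5, with more genes in the wider ranges to their left and right than among them.

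The differences that chose the members ran from −2.34 to −1.001 in the Nep3 line, with a median of −1.32, against a median of 0.00 over all genes at the floor. For 6 members the Nep3 difference was −2 or lower, for 38 it lay between −2 and −1.5, and for 90 it was above −1.5. The median member was at 13.7 CPM in Nep3-positive and 37.6 CPM in Nep3-negative cells, and at 31.7 CPM in Ncol3-positive and 32.0 CPM in Ncol3-negative cells. Over all genes at the floor, these medians were 26.8, 25.5, 26.6 and 24.6 CPM in the same order. All 134 members passed the filter on low counts. The Nep3-positive and Nep3-negative libraries did not overlap in CPM for 128 members, where 13.9% of all genes tested were lower without overlap, and all 134 were called lower by edgeR, where 19.2% of all genes tested were. These counts follow from the choice of the members. In bulk libraries, fewer cells of a type and less RNA per cell cannot be told apart.

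**Figure D2:**
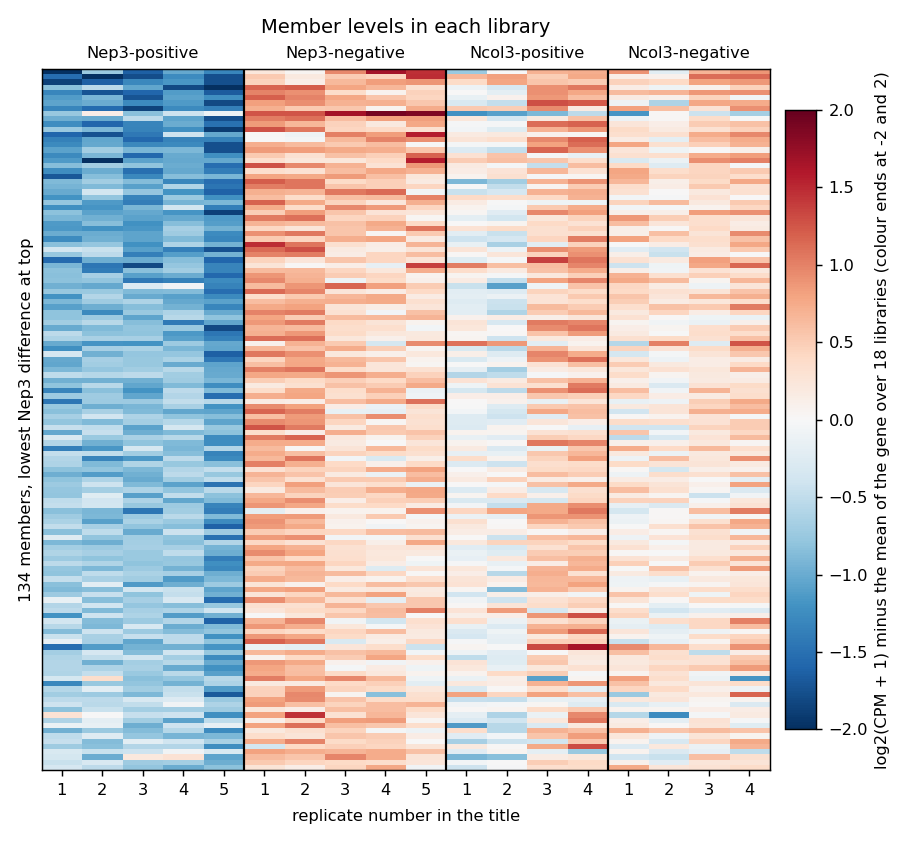
Rows are the 134 members and columns the 18 libraries by population and replicate number; colour gives log2(CPM + 1) minus the mean of that gene over all libraries, cut at −2 and 2. The 5 Nep3-positive libraries are the low block on the left, and Ncol3-positive replicates 1 and 2 are lower for many members than replicates 3 and 4.

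NV2.18311 had the lowest Nep3 difference, −2.34. Its level was 1.99, 9.90, 4.87, 7.90 and 6.36 CPM in Nep3-positive replicates 1 to 5, against 20.4, 17.8, 34.5, 56.9 and 48.9 CPM in the Nep3-negative replicates. It was 9.85, 17.3, 28.6 and 28.98 CPM in Ncol3-positive replicates 1 to 4 and 32.8, 14.8, 28.0 and 32.7 CPM in the Ncol3-negative replicates. The Nep3 populations did not overlap, but the highest Nep3-positive library (replicate 2) lay just above the lowest Ncol3-positive library (replicate 1).

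NV2.20021 was among the more abundant members. It was at 46.9, 32.2, 39.2, 56.5 and 39.9 CPM in Nep3-positive libraries, against 198, 157, 195, 188 and 382 CPM in Nep3-negative libraries, a 5.22-fold lower mean. In the Ncol3 line it was at 219, 244, 193 and 232 CPM in positive and 149.96, 145, 299 and 300.5 CPM in negative libraries. Every library outside the Nep3-positive population was thus above every library within it. Without Nep3-negative replicate 5, the highest of its group, the fitted log2 fold change was −2.12 instead of −2.41.

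NV2.18786 and NV2.17107 showed the same order at low levels. NV2.18786 was at 1.56, 2.01, 2.84, 3.18 and 1.76 CPM in Nep3-positive libraries, against 11.7, 9.20, 13.6, 15.7 and 16.1 CPM in Nep3-negative libraries. It averaged 12.9 ± 1.65 CPM in Ncol3-positive and 13.6 ± 2.34 CPM in Ncol3-negative libraries (SD, n = 4 each). For this gene the 13 libraries outside the Nep3-positive population agreed closely, between 9.20 and 16.1 CPM. NV2.17107 averaged 2.86 ± 0.592 CPM in Nep3-positive and 14.3 ± 2.57 CPM in Nep3-negative libraries (SD, n = 5 each), and 14.6 ± 3.52 and 15.8 ± 3.07 CPM in Ncol3-positive and Ncol3-negative libraries (n = 4 each).

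NV2.12320 was at 46.7, 34.6, 38.0, 53.1 and 35.97 CPM in Nep3-positive libraries, against 232, 221, 149.7, 123 and 160.5 CPM in Nep3-negative libraries. NV2.21849 was at 10.5, 13.04, 8.92, 4.81 and 3.79 CPM in Nep3-positive and 44.7, 46.1, 34.04, 31.4 and 24.5 CPM in Nep3-negative libraries. Neither gene overlapped between the Nep3 populations. In Ncol3-positive replicates 1 to 4, NV2.12320 was at 116, 102, 219 and 199 CPM and NV2.21849 at 18.1, 15.3, 37.6 and 41.3 CPM, so both were lower in the first pair of replicates than in the other. In Ncol3-negative replicates they were at 181, 188, 214 and 221 CPM and at 21.6, 18.2, 20.6 and 27.2 CPM.

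The remaining genes among the 10 lowest were NV2.25746, NV2.9790, NV2.24493 and NV2.10504. They averaged between 2.40 and 8.15 CPM in Nep3-positive and between 12.3 and 34.8 CPM in Nep3-negative libraries (n = 5 each). NV2.9790 averaged 32.7 ± 20.1 CPM in Ncol3-positive libraries (SD, n = 4), the widest relative spread of the 10 in that population. NV2.24493 differed from the other 9 in the Ncol3 line, where it was at 1.31 ± 0.50 CPM in positive and 2.05 ± 1.05 CPM in negative libraries, below its level in Nep3-negative libraries, 12.3 ± 2.85 CPM.

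**Figure D3:**
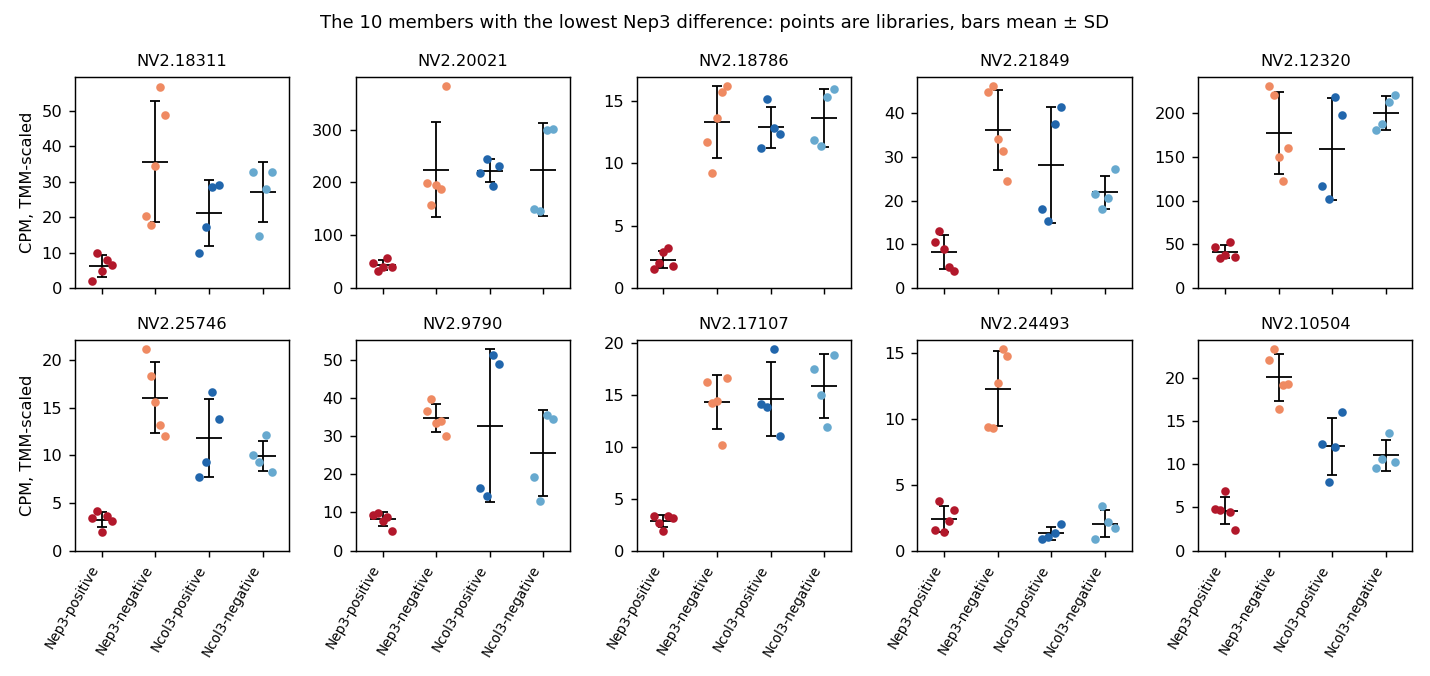
CPM of the 10 members with the lowest Nep3 difference, on linear axes from 0; points are libraries, and bars give the mean ± SD of each population (n = 5 in the Nep3 line, n = 4 in the Ncol3 line). In every panel the Nep3-positive libraries lie below the Nep3-negative libraries, and NV2.24493 is the gene with low levels in the Ncol3 line as well.

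The 5 most abundant members by their mean over all libraries were NV2.4066, NV2.3783, NV2.20610, NV2.14800 and NV2.19973. NV2.3783 was the most even of them, at 257, 257, 259, 306 and 267 CPM in Nep3-positive libraries, against 712, 656, 703, 662 and 770.4 CPM in Nep3-negative libraries. It averaged 689.8 ± 114 CPM in Ncol3-positive and 539.9 ± 40.4 CPM in Ncol3-negative libraries (SD, n = 4 each). NV2.14800 averaged 116 ± 19.1 CPM in Nep3-positive and 442 ± 76.5 CPM in Nep3-negative libraries (SD, n = 5 each), the lowest relative level of the 5. NV2.20610 averaged 179.7 ± 25.98 CPM and 467 ± 142 CPM, and NV2.19973 averaged 202 ± 26.9 CPM and 524 ± 54.5 CPM, in the same populations.

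NV2.4066 varied most within the Ncol3 line. It was at 251, 222, 219.6, 305 and 247 CPM in Nep3-positive and 537, 824, 729, 398 and 973 CPM in Nep3-negative libraries. In the Ncol3 line it was at 1074, 919.6, 436 and 529 CPM in positive replicates 1 to 4, against 341, 1021, 425 and 1216 CPM in negative replicates 1 to 4. Its mean Ncol3 difference of 0.08 thus averaged over replicates that differed by more than the populations did.

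The end of the list did not separate the members from their neighbours. NV2.6975, NV2.18819 and NV2.18341 had Nep3 differences of −1.02, −1.01 and −1.001. The nearest genes outside, NV2.8559, NV2.4603 and NV2.8171, had −0.999, −0.998 and −0.995. On the side of the Ncol3 limit, the nearest genes outside were NV2.10123, NV2.4231 and NV2.25388, with Ncol3 differences of −0.51, 0.52 and −0.52 and Nep3 differences of −1.43, −1.86 and −1.46. The 6 members whose Nep3 populations overlapped, NV2.21728, NV2.25274, NV2.4073, NV2.20198, NV2.13806 and NV2.6975, all had Nep3 differences above −1.2.

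The Nep3 difference was then examined in libraries that had not been used to choose genes. The rule was applied 5 times, each time without the positive and the negative Nep3 library of 1 replicate number, and the genes so chosen were read in the libraries left out. Without replicate 1, 141 genes were chosen, of which all 141 were lower in the positive library of replicate 1, with a median difference of −1.37. Without replicates 2, 3, 4 and 5 in turn, 142, 137, 148 and 128 genes were chosen, and 141, 137, 146 and 128 of them were lower in the libraries left out. The medians there were −1.24, −1.23, −1.08 and −1.41. Over all genes at the floor, the median of the same libraries lay between −0.02 and 0.06. A difference of −1 or lower was found for between 56.8% and 83.7% of the chosen genes, and for between 10.7% and 12.8% of all genes at the floor. Replicate 4 had the smallest median, and its negative library had the most mOrange2 of the Nep3-negative group, 185 CPM against 131 CPM in the next; the part of this in the smaller difference was not tested.

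Whether the Ncol3-line level lay nearer the negative or the positive cells of the Nep3 line was asked with the line difference. This is the mean of the 2 Nep3 populations minus the mean of the 2 Ncol3 populations. Each line has its own reporter transgene, so a difference between cells cannot be told apart from one between the lines. In each line, positive and negative libraries enter the line difference with the same sign. Errors in the differences that chose the members would stay out of it only if both populations had the same spread. The median SD of a member was 0.38 in Ncol3-positive and 0.22 in Ncol3-negative libraries, and 0.28 and 0.31 in the Nep3 line. Some of the error that chose the members can therefore enter the test. The choice also bears on the direction of the line difference. Where the negative populations of the 2 lines are alike, a low Nep3 difference with a small Ncol3 difference puts the value below 0. The level floor also used the same means. On the fitted log2 scale, a member's value below 0 means that the Ncol3-line level lay nearer the Nep3-negative than the Nep3-positive level, and a value above 0 the opposite. It passed an adjusted p of 0.05 in the direction of a lower Nep3-line level for 68 of 134 members (50.7%, edgeR quasi-likelihood test, Benjamini-Hochberg adjustment over 18976 genes). Of all genes tested 12.5% were called lower, and of those at the floor 14.1%. Only 2 members (1.49%) were called higher, where 15.3% of all genes tested and 19.1% of those at the floor were. Neither set was limited to genes at least 1 unit lower in Nep3-positive cells. The departure from these shares is therefore not read as particular to the members. The median line difference was −0.44 over the members, with a median SE of 0.15, and 0.03 over all genes tested. The other 64 members did not pass the threshold, 55 with values below 0 and 9 above. Members that reached 10 CPM in 1 line alone were selected towards a difference of that line: 8 reached it in the Nep3 line alone, with 0 called lower and 1 higher, and 1 in the Ncol3 line alone, called lower. Of the 125 members that reached it in both lines, 67 were called lower and 1 higher. The count called lower rested on the Ncol3 libraries and the scaling. It was 28 with only Ncol3 replicates 1 and 2, where 7.19% of all genes were called lower, and 93 with only replicates 3 and 4, where 12.8% were. It was 36 with library size as the only scaling, where 7.72% of all genes were called lower.

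Placed on a scale that runs from 0% at the Nep3-positive to 100% at the Nep3-negative mean on the log2(CPM + 1) scale, the Ncol3-line mean stood at a median of 79.3% (quartiles 68.7% and 93.4%). It lay above 100% for 25 members, between 75% and 100% for 59, between 50% and 75% for 38 and at 50% or below for 12. Nep3-positive cells had the lowest of the 4 population means for 131 members, as they had for 26.3% of all genes at the floor and 63.2% of the 1298 genes that were at least 1 unit lower in Nep3-positive cells. Nep3-negative cells had the highest mean for 99 members, for 19% of all genes at the floor and for 37.6% of those 1298 genes. For 100 members all 5 Nep3-positive libraries lay below all 13 other libraries, where 22.3% of the 1298 genes, 3.61% of all genes at the floor and 2.47% of all genes tested did. The rule kept Nep3-positive values low and the Ncol3 populations close, so nothing is read from these counts. For the other 34 at least 1 Ncol3-line library fell below the highest Nep3-positive library. Nep3-negative minus Ncol3-negative had a median of 0.26 over the members (0.05 over genes at the floor) and was within 0.5 for 103 of them, at least 0.5 for 30 and at most −0.5 for 1. Nep3-positive minus Ncol3-positive had a median of −1.12 (0.06 over genes at the floor) and was below 0 for 132 members. These 2 differences share libraries with the rule and are given without a test.

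**Figure D4:**
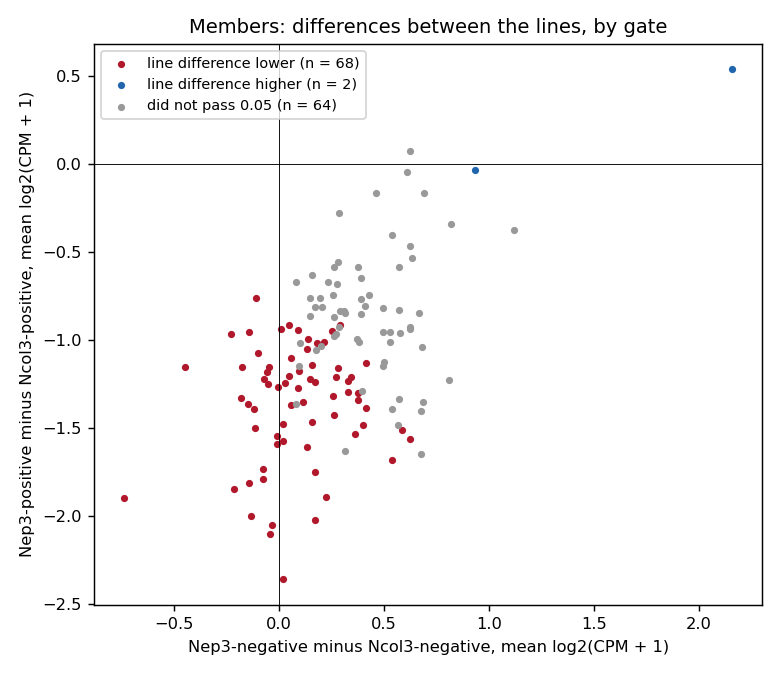
Each point is 1 of the 134 members; the horizontal axis gives Nep3-negative minus Ncol3-negative and the vertical axis Nep3-positive minus Ncol3-positive, in log2(CPM + 1) units, coloured by the edgeR test of the line difference (68 lower, 2 higher, 64 not past 0.05). Most members lie well below 0 on the vertical axis. On the horizontal axis 103 lie within 0.5 of 0, and 109 lie above 0.

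The lowest line differences belonged to NV2.1930, NV2.18786 and NV2.17107. NV2.1930 was at 16.1, 21.4, 24.3, 24.1 and 20.5 CPM in Nep3-positive and 43.9, 42.2, 57.1, 61.7 and 35.3 CPM in Nep3-negative libraries. It was higher in the Ncol3 line, at 49.8, 47.4, 121 and 152 CPM in positive and 92.7, 76.8, 61.3 and 89.8 CPM in negative libraries, and its line difference was −1.40 (SE 0.19, edgeR adjusted p = 2.4e-05). It was the member whose Ncol3-line level stood farthest beyond the Nep3-negative level, at 168% of the scale. NV2.18786 and NV2.17107, given above, had line differences of −1.25 (SE 0.16) and −1.21 (SE 0.15).

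NV2.24493 and NV2.19554 were the 2 members called higher. NV2.24493 reached 10 CPM in Nep3-negative cells alone, so its line difference of 1.79 (SE 0.27) is in the direction that the level floor selected and is given as a description. It was at 9.33, 9.31, 12.7, 15.3 and 14.7 CPM in Nep3-negative libraries, while all 13 other libraries lay between 0.856 and 3.76 CPM. It was thus high in Nep3-negative libraries and low in all the rest. NV2.19554 averaged 10.8 ± 1.23 CPM in Nep3-positive and 22.8 ± 1.33 CPM in Nep3-negative libraries (SD, n = 5 each), and 11.2 ± 2.67 and 11.6 ± 2.12 CPM in Ncol3-positive and Ncol3-negative libraries (n = 4 each). Its line difference was 0.47 (SE 0.12, edgeR adjusted p = 0.00597), and it did not pass with only Ncol3 replicates 1 and 2 (0.28, edgeR adjusted p = 0.168).

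The Ncol3 difference of the members, which the rule kept small, was bounded less tightly than its limit. Fitted log2 fold changes between Ncol3-positive and Ncol3-negative cells ran from −0.71 to 0.54, with a median SE of 0.23. Their 95% intervals lay within −1 and 1 for 115 members and within −0.5 and 0.5 for 16, and for 19 they reached past −1 or 1. A difference between the Ncol3 populations was called by edgeR for 3 members, where 27.8% of all genes tested were called in either direction. These were NV2.15921, NV2.19973 and NV2.12250, all lower in Ncol3-positive cells, and their fitted values were −0.55 (SE 0.20), −0.48 (SE 0.16) and −0.53 (SE 0.15). The small count of calls follows from the limit that chose the members, and the intervals do not allow for that choice. The highest fitted values were those of NV2.18790 (0.54, SE 0.26), NV2.12835 (0.48, SE 0.23) and NV2.16704 (0.46, SE 0.29). The lowest were those of NV2.24493 (−0.71, SE 0.43), NV2.19018 (−0.60, SE 0.28) and NV2.2998 (−0.58, SE 0.29).

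The small Ncol3 difference also depended on how the libraries were scaled. As a share of all counts of NV2 genes, the members held 0.455% ± 0.0595 in Nep3-positive and 1.25% ± 0.233 in Nep3-negative libraries (SD, n = 5 each). They held 0.720% ± 0.0727 in Ncol3-positive and 1.24% ± 0.108 in Ncol3-negative libraries (SD, n = 4 each), so their raw share was lower in the positive cells of both lines. The TMM factors, which multiply the library size, were between 0.537 and 0.945 in Ncol3-positive and between 1.19 and 1.30 in Ncol3-negative libraries, and between 0.959 and 1.17 in the Nep3 line. With library size only, the median Ncol3 difference of the members was −0.80, and 28 of the 134 were still under 0.5, while 106 were at −0.5 or lower. Over all genes tested, the median fitted Ncol3 value was then −0.72 instead of −0.05, so the members moved about as far as all genes did. The median Nep3 difference of the members was −1.34 with library size only and −1.32 with TMM. With DESeq2 size factors 127 of the 134 were under 0.5 in the Ncol3 line.

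Within the Ncol3 line the mean difference joined replicates that went opposite ways for many members. Positive and negative libraries were matched here by title number alone, which was not taken to pair the samples. The median difference over the members was −0.26, −0.19, 0.19 and 0.16 in replicates 1 to 4. Over all genes at the floor it was 0.02, 0.09, 0.09 and 0.19. Taken as means of replicates 1 and 2 and of replicates 3 and 4, 63 members were under 0.5 in both, which is 47.0% of them, and 71 reached 0.5 in at least 1. Of all 7403 genes at the floor with a mean Ncol3 difference under 0.5, 73.8% were under 0.5 in both. The value was below 0 in replicates 1 and 2 and above 0 in replicates 3 and 4 for 57 members, and the reverse for 12. In 107 members (79.9%) it was higher in replicates 3 and 4, as it was in 59.1% of all genes at the floor.

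NV2.1930 was the widest case, with a mean Ncol3 difference of 0.04 made up of −0.78 in replicates 1 and 2 and 0.86 in replicates 3 and 4. NV2.18790 had −0.03 and 1.02. Its level was 21.2, 13.98, 37.4 and 35.5 CPM in Ncol3-positive replicates 1 to 4, against 18.4, 16.8, 15.9 and 19.0 CPM in Ncol3-negative replicates 1 to 4. NV2.20021 and NV2.4066 went the other way, with 0.64 and 0.75 in replicates 1 and 2 and −0.50 and −0.58 in replicates 3 and 4. For NV2.18790 the positive libraries changed between the pairs of replicates and the negative ones stayed close, for NV2.20021 the negative libraries were the ones that changed, and for NV2.4066 libraries of both populations varied.

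Several properties of the libraries moved with this split. In Ncol3-positive replicates 1 to 4, mOrange2 was at 685, 783, 1162 and 1272 CPM. The TMM factors of the same libraries were 0.945, 0.890, 0.590 and 0.537. The mean log2(CPM + 1) over the members was 4.99, 4.93, 5.44 and 5.57 in Ncol3-positive replicates 1 to 4, against 5.22, 5.13, 5.30 and 5.42 in the Ncol3-negative replicates. The part of these in the result was not tested, and all libraries carry 1 batch label.

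**Figure D5:**
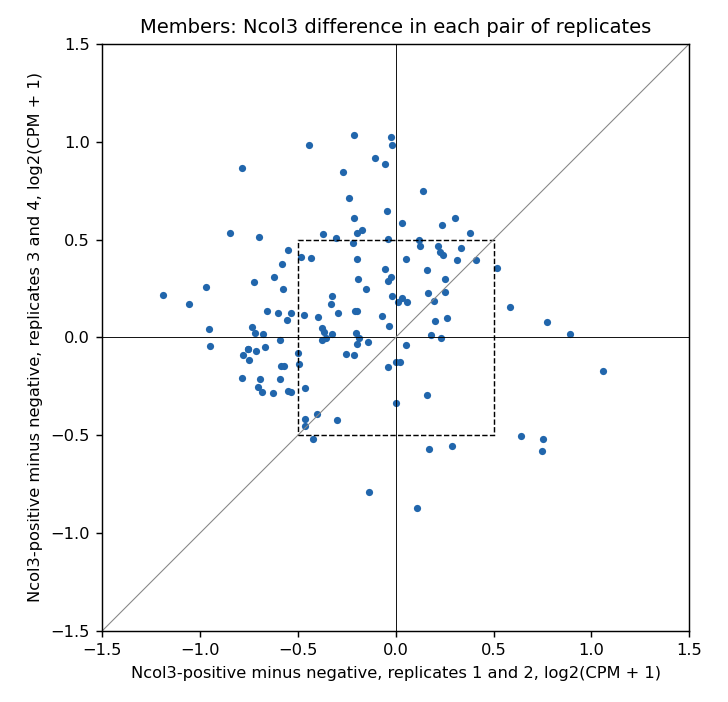
Each point is 1 of the 134 members; the axes give the Ncol3-positive minus Ncol3-negative difference over replicates 1 and 2 (horizontal) and replicates 3 and 4 (vertical) in log2(CPM + 1) units, the dashed square marks differences under 0.5 in both, and the diagonal marks equal values. Of the members 63 lie in the square and 107 lie above the diagonal.

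The same reading in libraries left out of the choice was made for the Ncol3 difference. When the positive and negative Ncol3 libraries of replicate 1, 2, 3 or 4 were left out, 134, 139, 122 and 136 genes were chosen. In the libraries left out, 58.2%, 51.8%, 63.1% and 57.4% of these had a difference under 0.5. Among all genes at the floor that met the Ncol3 limit without those libraries, the shares were 75.8%, 84.9%, 73.3% and 64.5%. The medians of the chosen genes were −0.21 and −0.25 for replicates 1 and 2 and 0.25 and 0.20 for replicates 3 and 4. The share of the chosen genes was the lower one in all 4 replicates; the difference in shares was not tested.

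Replicate spread set the precision of these values. The median SD of a member on the log2(CPM + 1) scale was 0.28 in Nep3-positive, 0.31 in Nep3-negative, 0.38 in Ncol3-positive and 0.22 in Ncol3-negative libraries. Over all genes at the floor it was 0.23, 0.26, 0.28 and 0.22 in the same order, so the members' spread stood out most from other genes in Ncol3-positive libraries. The median biological coefficient of variation was 22.4% over the members, 19.6% over genes at the floor and 23.6% over all genes tested.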

How the data were processed

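Poly(A) RNA of sorted tentacle cells was sequenced as directional libraries, per the labels. The authors deposited 1 table with a column of raw, unnormalized counts for each of the 18 libraries. Trimmomatic, STAR 2.7.10a and featureCounts 2.0.1 are named in the submitters' processing notes, without their roles. The genome build, the annotation and the strand setting are not given in the sources used here, so paralogs and overlapping genes are uncertain.

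Members were chosen from NV2 rows with any count after TMM scaling in edgeR 4.0.16 (R 4.3.3). The members, lists and tests were chosen with earlier results of these data known. For tests, 18976 genes that passed filterByExpr were fitted with edgeR's quasi-likelihood method, using group means over all 18 libraries, which held between 5463324 and 15269119 counts. Adjustment was by the Benjamini-Hochberg method over all of them, two-sided, at 0.05. The standard error is the log2 fold change divided by the root of F. DESeq2 1.42.0 and limma 3.58.1 served as alternatives. No replicates appeared to be 1 library deposited more than once, since their counts differed by a chi-square of at least 6.41 per degree of freedom.

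Members were named by rule: the 10 lowest Nep3 differences, the 5 highest levels, and up to 3 called line differences in each direction. Also named were the 3 highest and 3 lowest fitted Ncol3 values. Near the limits, 3 genes on either side of the Nep3 limit and the 3 nearest outside the Ncol3 limit were named. Genes named for an overlap or an Ncol3 call are the few members with that property and were chosen after their values were seen.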

Additional observations from a re-analysis of the deposited data

Results flagged for a closer look

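Single libraries that stood apart from the rest of their population were looked for in 136 sets of 4 or 5 values, covering the named genes, mOrange2, the total counts and the mean level of the members. Chance flags about 1 in 20 such sets, and 6 were found.

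Among members, NV2.20021 was at 382 CPM in Nep3-negative replicate 5, where the next library was at 198 CPM. NV2.3783 was at 306 CPM in Nep3-positive replicate 4, where the next was at 267 CPM. NV2.2998 was at 14.7 CPM in Ncol3-positive replicate 4, where the next was at 7.14 CPM.

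The other 3 were genes just outside the limits of the rule. NV2.8559 was at 12.5 CPM in Ncol3-positive replicate 3 and NV2.10123 at 26.2 CPM in Ncol3-negative replicate 2, where the next lowest libraries were at 15.3 and 32.6 CPM. NV2.4231 was at 27.5 CPM in Ncol3-negative replicate 4, where the next was at 18.4 CPM. The members were chosen because their differences were unlike in the 2 lines, so that contrast is not listed here.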

How the results depend on the processing

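The rule gave between 131 and 155 genes under the other scalings, a pseudocount of 0.5 CPM and either pair of Ncol3 replicates, and 96 with a floor of 20 CPM. Which genes these were depended on the scaling and the Ncol3 libraries. With library size only, 28 of the 134 members were kept, the median Ncol3 difference of the members was −0.80, 36 were called lower between the lines and 10585 genes were called in the Ncol3 line. That scaling also took the share of lower calls among all line differences to 30.8% from 45.0% with TMM. With only Ncol3 replicates 1 and 2, 87 members were kept, 28 were called lower between the lines, 3071 genes had a line difference and 2856 an Ncol3 difference. The Ncol3 value of mOrange2 was 1.66 with only replicates 1 and 2 and 1.65 with only replicates 3 and 4, without passing 0.05 in either (adjusted p = 0.148 and 0.111, edgeR). An Ncol3 limit of 0.25 kept 70 genes.

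Leaving out each library in turn kept between 102 and 134 members and called between 57 and 88 of them lower between the lines. The replicate block, with the libraries of a number in a line as a random effect in limma, called 61 members lower and 2 higher. As a fixed term in edgeR it called 7376 genes in the Nep3 line and 5500 in the Ncol3 line, against 7179 and 5275 without it. Deviations of same-numbered libraries correlated between −0.03 and 0.33 in the Nep3 line and between 0.03 and 0.30 in the Ncol3 line over all genes tested. Over genes at the floor they correlated between −0.10 and 0.45 in the Nep3 line and between 0.11 and 0.45 in the Ncol3 line. The numbers were not taken to pair the samples, a choice that for the Ncol3 line depended on which genes were used. The best match had the same number in 3 of 5 Nep3-positive libraries, and in 2 of 4 Ncol3-positive libraries over genes tested and 3 of 4 over genes at the floor. DESeq2 called 80 members lower between the lines, no filter called 69 and a filter of 5 CPM called 70.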

Other observations

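The list held 11 members in 5 runs of consecutive NV2 numbers. The files do not say how the numbers relate to position, and reads shared between near-identical genes were not examined. The longest run was NV2.18182, NV2.18183 and NV2.18184, with Nep3 differences of −1.24, −1.91 and −1.72. They averaged 28.8 ± 6.90, 86.8 ± 25.4 and 5.52 ± 1.48 CPM in Nep3-positive libraries, against 69.0 ± 14.8, 330.1 ± 105 and 20.8 ± 6.98 CPM in Nep3-negative libraries (SD, n = 5 each). NV2.5136 and NV2.5137 averaged 15.4 ± 2.52 and 49.6 ± 6.49 CPM in Nep3-positive libraries, against 55.1 ± 8.07 and 119.6 ± 12.3 CPM in Nep3-negative libraries. The other runs were NV2.20195 with NV2.20196, NV2.20505 with NV2.20506, and NV2.25273 with NV2.25274. Members of 1 run are not independent observations if they share reads.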
